A study of Mus musculus with 66 samples.

Results

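The genes examined were 73 splicing factor genes of the mouse, taken by symbol: those that begin with Srsf, Hnrnp, Snrp, Snrnp, Sf3a, Sf3b, U2af or Prpf. The 3'READS table held 71 of them among 15856 genes, with 214 of the 59578 poly(A) (pA) sites, and the RNA-seq table held 44 among 9999 genes. There were 42 genes in both tables. Srsf12 and Sf3b6 were listed in RNA-seq only. Older spellings that the rule does not reach, such as Hnrpll and Hnrpdl, were left out.

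C2C12 cells, a mouse myoblast line, received 50 nM siRNA for 48 h, either a non-targeting one (siCtrl, labelled siNS) or one to Paf1, Cdc73 or Ski8 (gene symbol Wdr61), 3 subunits of the RNA polymerase II associated factor complex, Paf1C. RNA-seq, which counted reads in coding regions, and 3'READS, which counted the 3' ends of polyadenylated transcripts, gave 7 libraries each. siCtrl, siPaf1 and siCdc73 had 1 library in each of 2 batches, and siSki8 had 1 library, in batch 2. All libraries came from the same line in growth conditions for myoblasts, with no untransfected control used here, and the labels do not say whether the 2 batches were separate cultures, so p-values measure the spread between these libraries.

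Splicing removes introns through 5 small nuclear ribonucleoproteins (snRNPs): U1 marks the 5' splice site, U2 with U2AF marks the branch point and 3' splice site, and the U4/U6.U5 tri-snRNP brings in the catalytic core. A ring of Sm proteins is common to most snRNPs, SR proteins bind exons and promote the choice of nearby splice sites, and hnRNPs coat nascent RNA and often oppose it. U1 is also known to shield pA sites inside introns from the cleavage machinery, and many SR and hnRNP genes control their own level through alternative splicing or alternative polyadenylation (APA). Paf1C travels with elongating RNA polymerase II.

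RNA-seq reads, counted over the transcript of each listed gene with the highest mean count, ran from 2796693 to 8160386 per library. 3'READS reads with a poly(A) tail (PASS reads) ran from 5302728 to 14340927. Each siRNA lowered its own target: Paf1 fell to 20.3 and 31.1 CPM (counts scaled to a common library size with TMM factors) in siPaf1 from 107 and 159.8 in siCtrl (RNA-seq, batch 1 and batch 2), Cdc73 to 14.2 and 22.0 from 109 and 98.4, and Wdr61 to 5.97 from 129 (siSki8, batch 2). Paf1 was higher in both siCdc73 libraries, at 264 and 418. In the siPaf1 batch 2 3'READS library, 271 genes stood over 20-fold above all other libraries, and 0 of them were splicing factor genes. For the marker genes that follow, CPM are scaled by library size alone. Of 7 myoblast markers, 5 were listed in RNA-seq, where their summed level was 17990 to 35507 CPM, and Myod1 was at 0 to 0.598 CPM in 3'READS. Most of that sum was Vim, at 17422 and 30923 CPM in siCtrl, and the others did not move together. Cdh15 was at 884 and 1035 CPM in siCtrl, 397 and 641 in siPaf1, 328 and 352 in siCdc73 and 814 in siSki8. Des was at 780 and 1455 in siCtrl, 1513 and 2027 in siPaf1, 645 and 968 in siCdc73 and 1867 in siSki8. Markers of differentiated muscle (3 of 6 listed in RNA-seq) summed to 17.2 and 111 CPM in siCtrl and 34.6 and 191 in siPaf1. They summed to 18.2 and 155 in siCdc73 and 108 in siSki8, so siPaf1 was the highest of each batch. The white blood cell marker Ptprc was at most 1.30 CPM, and Krt8, of epithelia, was at 18.8 and 54.0 in siCdc73 against at most 6.99 in the other libraries. The part of these differences in the results that follow was not tested.

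Splicing factor genes were expressed well above most genes. Their median in siCtrl was 94.4 RPKM (reads scaled for transcript length and depth, as deposited) over 44 genes, against 8.39 over the 7897 genes with a read in any library. Reads of splicing factor genes made up 2.12% to 2.74% of a library's RNA-seq reads, counted over 1 transcript per gene. In 3'READS they made up 1.35% to 2.04% of a library's sense PASS reads. Hnrnpab, an A/B-type hnRNP, was highest of all at 1385 ± 12.2 RPKM (mean ± SD, n = 2), and Hnrnpa3 was the lowest hnRNP at 5.42 ± 0.203 RPKM. Among SR proteins the level ran from 479 ± 23.5 RPKM for Srsf5 to 0 for Srsf12, and in the Sm core from 602 ± 312 RPKM for Snrpd3 to 5.65 ± 3.16 RPKM for Snrpn, the paralogue of Snrpb from an imprinted locus. Sf3b6 led the U2 class with 721 ± 198 RPKM and U2af1l4, a short relative of U2af1, was its lowest with 20.9 ± 8.38 RPKM. In the remaining classes Prpf19, the ubiquitin ligase of the Prp19 complex, reached 108 ± 56.9 RPKM and Prpf40b 12.3 ± 0.60 RPKM, while the U5 helicase Snrnp200 stood at 40.7 ± 5.56 RPKM and Prpf31 at 31.1 ± 14.4 RPKM. The U1 70K protein Snrnp70 had 139 ± 1.59 RPKM. Only uniquely mapped reads were counted upstream, so genes with near copies or processed pseudogenes, Hnrnpa1 and Hnrnpa3 among them, have uncertain levels. In 3'READS 2 sites of Hnrnpa1 are also listed under Gm10052 and Gm5643, and 1 of Snrpn under Snurf. In bulk RNA, fewer cells with a transcript and less of it per cell cannot be told apart.

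Which splicing factor genes changed in abundance was tested first in RNA-seq, where 43 of the 44 passed the filter on low counts (Srsf12 did not). CPM here and below are counts scaled by edgeR's TMM factors, pairs of values are batch 1 and then batch 2, and a fold change is a log2 difference from siCtrl. In the fit without a batch term, edgeR's quasi-likelihood test called 0 of 43 genes in each knockdown, with 1 higher and 0 lower at an unadjusted p under 0.05 in siPaf1, 5 and 0 in siCdc73, 2 and 0 in siSki8. DESeq2 without the block called 0, 1 and 0, and its share of all genes is not given here. The edgeR fit without the block called 0% of all 6521 genes after each knockdown. The libraries of a batch deviated together, and all calls named below come from the same fit with the batch as a block. With the block, siPaf1 raised 8 and lowered 2 of the 43 genes, against 16.3% higher and 16.2% lower of all 6521 genes tested (32.5% in either direction). After siCdc73, 11 rose and 2 fell against 19.4% and 20.5% of all genes (39.9% in all). After siSki8, 2 rose and 1 fell against 2.93% and 2.5% (5.43% in all). The members' share that fell was 4.65% in both siPaf1 and siCdc73, and the share that rose was 18.6% and 25.6%. The median log2 fold change of the 43 genes was 0.15 against 0.02 over all genes in siPaf1, 0.21 against -0.02 in siCdc73 and 0.35 against 0.02 in siSki8. Scaling by library size alone gave splits of 9 and 2, 9 and 4, and 1 and 2 higher and lower. The counts rested on single libraries: the siPaf1 total of 10 was 1 without siCtrl batch 2 and 18 without siPaf1 batch 1. The siCdc73 total of 13 was 6 without siCtrl batch 2, 7 without siCdc73 batch 1 and 2 without siCdc73 batch 2. The siSki8 total of 3 was 0 without siCtrl batch 2, 1 without siCtrl batch 1 or either siCdc73 library, 10 without siPaf1 batch 1 and 11 without siPaf1 batch 2.

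3'READS gene totals, the sum of all sense PASS reads of a gene, tested 70 of the 71 genes listed there (Hnrnph2 had too few reads). Without the block 0 of 70 genes were called in each knockdown by edgeR, with 3 higher and 3 lower at an unadjusted p under 0.05 in siPaf1, 4 and 1 in siCdc73, 1 and 1 in siSki8, and DESeq2 called 1, 3 and 0. Of all 12579 genes, edgeR without the block called 0%, and the share called by DESeq2 is not given here. With the block, 4 rose and 3 fell after siPaf1, against 9.74% and 9.08% of all genes (18.8% in all), and 9 rose and 3 fell after siCdc73, against 10.8% and 11.8% (22.5% in all). After siSki8 edgeR called 0, with 10 higher and 1 lower at an unadjusted p under 0.05, and it called 0.151% of all genes. DESeq2 with the block called 2, and its share of all genes is not given here. The median of the 70 genes was -0.08 against 0.08 over all genes in siPaf1, 0.17 against -0.02 in siCdc73 and 0.23 against -0.05 in siSki8. Scaled by library size alone, the splits were 5 and 3 after siPaf1 and 6 and 3 after siCdc73. The siPaf1 total of 7 became 0 when siCtrl batch 2 was left out and 4 when siCtrl batch 1 was. The siCdc73 total of 12 was 4 without siCtrl batch 2 or siCdc73 batch 2, 6 without siCdc73 batch 1, 7 without siCtrl batch 1 and 19 without siPaf1 batch 2.

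**Figure D1:**
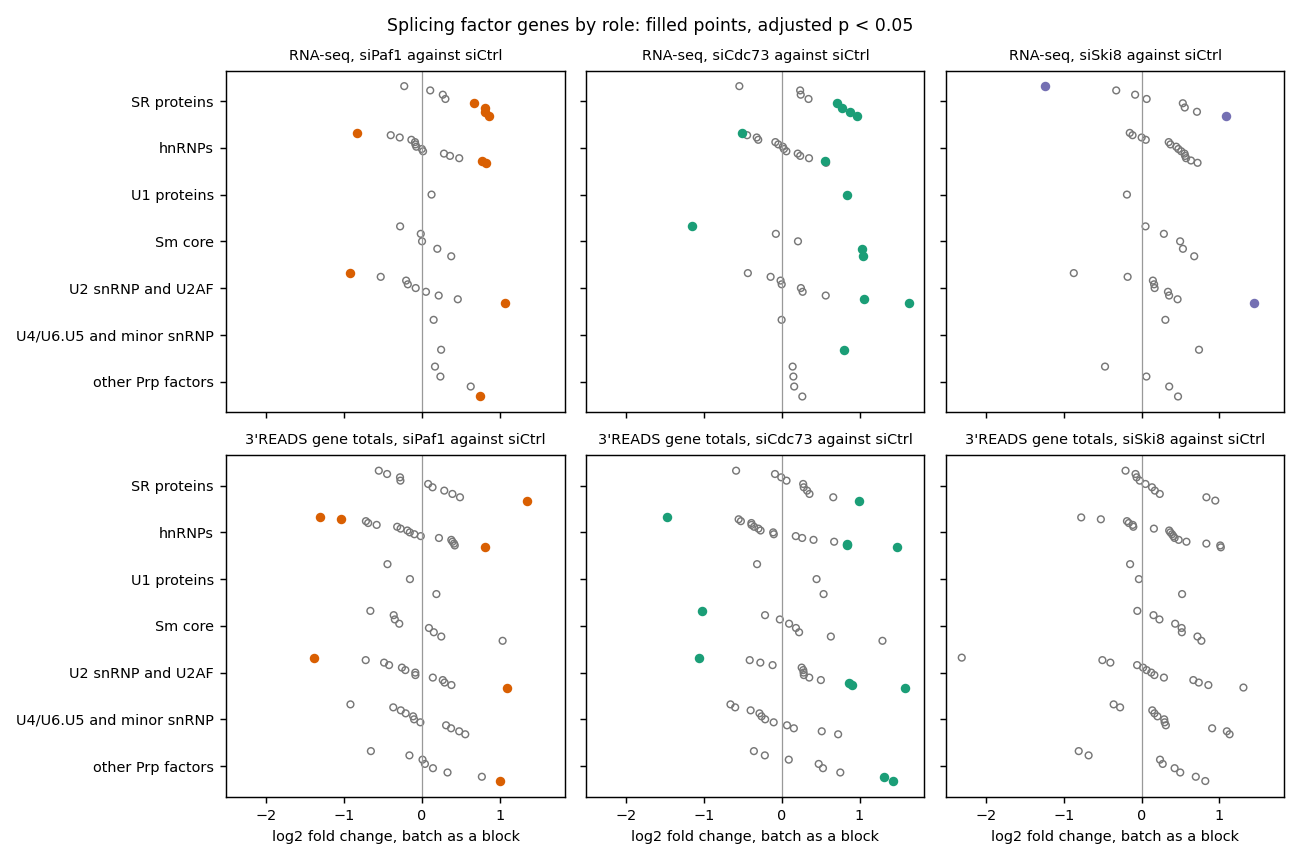
Log2 fold change of each splicing factor gene tested (x axis, batch term included) in 7 role classes (y axis), for RNA-seq (top) and 3'READS gene totals (bottom) and the 3 knockdowns. Filled points passed an adjusted p of 0.05 in edgeR's quasi-likelihood test: 10, 13 and 3 genes in RNA-seq and 7, 12 and 0 in 3'READS.

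SR proteins held the largest group of RNA-seq calls in 1 direction. Of the 8 tested, 4 rose and 0 fell after siPaf1 (median log2 fold change 0.49) and 4 rose and 0 fell after siCdc73 (median 0.53); with scaling by library size alone, 3 rose and 1 fell after siCdc73. Over all genes 16.3% rose after siPaf1 and 19.4% after siCdc73. The same 4 genes, Srsf5, Srsf6, Srsf9 and Srsf11, were called in both comparisons, which share their siCtrl libraries. Srsf9, a small SR protein with a short RS domain, had 196 and 197 in siCtrl, 339 and 380.0 in siPaf1, 328 and 394 in siCdc73 and 439 in siSki8 normalised CPM in RNA-seq. Every knockdown library was above both siCtrl libraries, and the log2 fold changes were 0.87 ± 0.22 (SE, adjusted p = 0.00339) in siPaf1, 0.87 ± 0.22 (SE, adjusted p = 0.00248) in siCdc73 and 1.09 ± 0.28 (SE, adjusted p = 0.0208) in siSki8. In 3'READS Srsf9 had 184 and 96.0 in siCtrl, 429 and 272 in siPaf1, 306 and 227 in siCdc73 and 204 in siSki8. There each knockdown library was also above both siCtrl libraries, with log2 fold changes of 1.36 ± 0.27 (SE, adjusted p = 0.00309), 0.99 ± 0.27 (SE, adjusted p = 0.0163) and 0.95 ± 0.34 (SE, adjusted p = 0.274) in siPaf1, siCdc73 and siSki8.

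Srsf5, an SR protein that shuttles between nucleus and cytoplasm, had 931 and 1053 in siCtrl, 1414 and 2145 in siPaf1, 1653 and 2289 in siCdc73 and 1657 in siSki8 in RNA-seq. It rose by 0.81 ± 0.21 (SE, adjusted p = 0.00390) in siPaf1 and 0.97 ± 0.21 (SE, adjusted p = 5.66e-04) in siCdc73, with no overlap between the siCtrl libraries and those of any knockdown. Its 3'READS totals were 129 and 241 in siCtrl, 239 and 224 in siPaf1, 241 and 333 in siCdc73 and 214 in siSki8, where both siPaf1 values and the siSki8 value lay between the 2 siCtrl values and no knockdown passed the test (adjusted p = 0.373, 0.118 and 1.00, edgeR). Srsf11, which associates with U1 and U2AF, rose by 0.82 ± 0.22 (SE, adjusted p = 0.00568) in siPaf1 and 0.71 ± 0.22 (SE, adjusted p = 0.0120) in siCdc73 in RNA-seq. Srsf6 rose by 0.68 ± 0.22 (SE, adjusted p = 0.0182) and 0.78 ± 0.22 (SE, adjusted p = 0.00522). The siPaf1 call of Srsf6 was lost without siCtrl batch 2, siPaf1 batch 2 or siCdc73 batch 2, and the siCdc73 calls of Srsf6 and Srsf11 without siCtrl batch 2 or either siCdc73 library. Neither passed in 3'READS, where the values were 0.08 and 0.28 for Srsf11 and 0.14 and 0.33 for Srsf6. Of the 10 SR genes tested in 3'READS, Srsf9 alone was called, after siPaf1 and after siCdc73, where 18.8% and 22.5% of all genes were called. Srsf3, the smallest SR protein, was the 1 gene that fell in siSki8: RNA-seq gave 60.0 and 79.4 in siCtrl, 55.2 and 61.1 in siPaf1, 52.8 and 138 in siCdc73 and 36.7 in siSki8, a log2 fold change of -1.24 ± 0.36 (SE, adjusted p = 0.0423). In 3'READS the siSki8 library was not lower (506 against 473 in siCtrl batch 2). This RNA-seq call was lost without either siCtrl or either siCdc73 library, with DESeq2 and with transcripts summed.

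Srsf9 and Srsf5 kept their RNA-seq calls after siPaf1 in 5 of 6 fits that left out 1 library, and lost them without siCtrl batch 2. After siCdc73 Srsf5 was lost without siCdc73 batch 2, and Srsf9 without siCtrl batch 2 or siCdc73 batch 2. The siSki8 call of Srsf9 was lost without either siCtrl or siCdc73 library and with scaling by library size alone. The siPaf1 call of Srsf11 was also lost without siCtrl batch 2, as was that of Srsf9 in 3'READS, whose siCdc73 call needed siCtrl batch 2 and siCdc73 batch 2.

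The hnRNPs were called in both directions. In RNA-seq 2 of 14 rose and 1 fell after siPaf1 and 1 rose and 1 fell after siCdc73; in 3'READS 1 of 17 rose and 2 fell after siPaf1 and 3 rose and 1 fell after siCdc73. All genes gave 32.5% and 39.9% called in either direction in RNA-seq and 18.8% and 22.5% in 3'READS after siPaf1 and siCdc73, and the hnRNP shares in RNA-seq lay below those of all genes. Hnrnpul1, an hnRNP U-like protein, fell in siPaf1 in both assays. Its RNA-seq values were 463 and 315 in siCtrl, 260.1 and 176 in siPaf1, 533 and 282 in siCdc73 and 272 in siSki8, with both siPaf1 libraries below all others, and the log2 fold change was -0.84 ± 0.23 (SE, adjusted p = 0.00510). Its 3'READS values were 119 and 167 in siCtrl, 48.1 and 67.7 in siPaf1, 152 and 109 in siCdc73 and 134 in siSki8, again lowest in siPaf1, with -1.30 ± 0.30 (SE, adjusted p = 0.00714). In siCdc73 it stood at 0.03 and -0.11 in the 2 assays (adjusted p = 0.929 and 0.843), and the difference between siPaf1 and siCdc73 passed the test in both (log2 -0.86, adjusted p = 0.00523, and -1.19, adjusted p = 0.0174). Both siPaf1 calls were lost without siCtrl batch 2.

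Hnrnpa2b1, which binds purine-rich RNA and takes part in RNA transport, had 356 and 222 in siCtrl, 566 and 426 in siPaf1, 1116 and 544 in siCdc73 and 292 in siSki8 in 3'READS. It rose by 0.81 ± 0.27 (SE, adjusted p = 0.0482) in siPaf1 and 1.48 ± 0.28 (SE, adjusted p = 0.00152) in siCdc73, with all 4 of these libraries above both siCtrl libraries. RNA-seq, which reads the coding region, gave 0.02 (adjusted p = 0.964) and 0.35 (adjusted p = 0.220). The siPaf1 call was lost in 4 of 6 fits that left out 1 library (either siCtrl library, siPaf1 batch 2 or siCdc73 batch 1), and the siCdc73 call in 0 of 6. Hnrnpd, an AU-rich element binding protein also called AUF1, fell in siPaf1, at -1.03 ± 0.28 (SE, adjusted p = 0.0172) in 3'READS, with 53.6 and 67.7 in siCtrl, 26.6 and 32.5 in siPaf1, 42.8 and 72.3 in siCdc73 and 126 in siSki8, and was at -0.09 in RNA-seq, where the batches gave -0.55 and 0.33. That call was lost without either siCtrl library or siPaf1 batch 2.

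Hnrnpa3 was called in a different knockdown in each assay. In 3'READS it had 51.0 and 88.9 in siCtrl, 36.3 and 49.3 in siPaf1, 25.6 and 23.5 in siCdc73 and 45.5 in siSki8 and fell in siCdc73, at -1.47 ± 0.30 (SE, adjusted p = 0.00299), a call lost without siCtrl batch 2 or siCdc73 batch 2, with -0.69 ± 0.29 (SE, adjusted p = 0.112) in siPaf1. In RNA-seq, at 15.0 and 16.6 in siCtrl, 16.8 and 45.0 in siPaf1, 10.8 and 12.1 in siCdc73 and 29.3 in siSki8, it rose in siPaf1 by 0.83 ± 0.33 (SE, adjusted p = 0.0497) with batch values of 0.17 and 1.42, and was at -0.44 ± 0.34 (SE, adjusted p = 0.306) in siCdc73. The RNA-seq call was lost without siCtrl batch 2, siPaf1 batch 2 or either siCdc73 library. Hnrnph2 rose in siPaf1 in RNA-seq by 0.77 ± 0.23 (SE, adjusted p = 0.0101), lost without either siCtrl library, and Hnrnpab fell in siCdc73, at -0.51 ± 0.20 (SE, adjusted p = 0.0464), lost without any 1 of the siCtrl or siCdc73 libraries and with DESeq2. Hnrnpc, which binds uridine tracts, was chosen after its values were seen because it rose after siCdc73 in both assays: 0.55 ± 0.22 (SE, adjusted p = 0.0425) in RNA-seq and 0.84 ± 0.27 (SE, adjusted p = 0.0365) in 3'READS. Both calls were lost without any 1 of the siCtrl or siCdc73 libraries.

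Of the 3 U1 proteins, Snrnp70 was the one listed in RNA-seq, with 469 and 487 in siCtrl, 502 and 543 in siPaf1, 671 and 1082 in siCdc73 and 465 in siSki8. Both siCdc73 libraries were above all others, and Snrnp70 rose there by 0.84 ± 0.23 (SE, adjusted p = 0.00362), while siPaf1 gave 0.13 ± 0.22 (SE, adjusted p = 0.700) and siSki8 -0.19 ± 0.29 (SE, adjusted p = 0.761). The difference between siPaf1 and siCdc73 was -0.72 (adjusted p = 0.0180) and that between siCdc73 and siSki8 1.03 (adjusted p = 0.00927). The siCdc73 call was lost without siCtrl batch 2 or siCdc73 batch 2. Snrnp70 did not pass in 3'READS, where it had 21.5 and 27.6 in siCtrl, 15.4 and 21.0 in siPaf1, 12.6 and 28.4 in siCdc73 and 27.5 in siSki8, with -0.32 ± 0.31 (SE, adjusted p = 0.510) in siCdc73 and batch values of -0.76 and 0.04. Snrpa, the U1 A protein, had 25.4 and 26.3 in siCtrl, 22.7 and 36.6 in siPaf1, 37.1 and 33.3 in siCdc73 and 27.0 in siSki8 in 3'READS, and its log2 fold changes were 0.19 ± 0.30 (SE, adjusted p = 0.703), 0.45 ± 0.30 (SE, adjusted p = 0.310) and -0.03 ± 0.39 (SE, adjusted p = 1.00) in siPaf1, siCdc73 and siSki8. Snrpc, the U1 C protein, had 11.4 and 23.7 in siCtrl, 11.5 and 19.4 in siPaf1, 17.4 and 33.2 in siCdc73 and 32.5 in siSki8 and -0.15 ± 0.30 (SE, adjusted p = 0.762), 0.54 ± 0.30 (SE, adjusted p = 0.212) and 0.52 ± 0.37 (SE, adjusted p = 0.658). None of the 3 U1 proteins was called in 3'READS by edgeR with the block in any of the 3 knockdowns, with standard errors of 0.30 to 0.40. Of all genes, 18.8%, 22.5% and 0.151% were called there after siPaf1, siCdc73 and siSki8. In RNA-seq, where Snrnp70 was called after siCdc73, 39.9% of all genes were called.

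In the U2 class the RNAs of 2 partner proteins of the U2 snRNA stem loop moved in opposite directions after siPaf1. Snrpb2 encodes the U2 B'' protein and Snrpa1 encodes the U2 A' protein, which bind the snRNA as a pair. Snrpb2 had 42.3 and 92.0 in siCtrl, 87.6 and 198 in siPaf1, 122 and 309 in siCdc73 and 259 in siSki8 in RNA-seq. Batch 2 was higher than batch 1 in each group, and within each batch every knockdown library was above siCtrl. It rose by 1.08 ± 0.24 (SE, adjusted p = 7.17e-04) in siPaf1, 1.64 ± 0.24 (SE, adjusted p = 2.71e-06) in siCdc73 and 1.44 ± 0.29 (SE, adjusted p = 0.00282) in siSki8. In 3'READS it had 129 and 112 in siCtrl, 267 and 246 in siPaf1, 355 and 362 in siCdc73 and 288 in siSki8, with no overlap between siCtrl and the knockdowns, and rose by 1.09 ± 0.27 (SE, adjusted p = 0.00979) in siPaf1 and 1.58 ± 0.27 (SE, adjusted p = 8.55e-04) in siCdc73 while siSki8 gave 1.31 ± 0.33 (SE, adjusted p = 0.108). Its RNA-seq calls in siPaf1 and siCdc73 and its 3'READS call in siCdc73 held in 6 of 6 fits that left out 1 library; the 3'READS call in siPaf1 was lost without either siCtrl library and the RNA-seq call in siSki8 without siCtrl batch 2.

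Snrpa1 had 176 and 352 in siCtrl, 101 and 168 in siPaf1, 171 and 361 in siCdc73 and 304 in siSki8 in RNA-seq and 2148 and 2038 in siCtrl, 902 and 725 in siPaf1, 2433 and 1210.4 in siCdc73 and 1361 in siSki8 in 3'READS. In each assay the siPaf1 library was the lowest of its batch. It fell in siPaf1, at -0.93 ± 0.23 (SE, adjusted p = 0.00242) and -1.38 ± 0.29 (SE, adjusted p = 0.00367) in the 2 assays, both lost without siCtrl batch 2, and gave 0.00 and -0.27 in siCdc73. The difference between siPaf1 and siCdc73 passed in both assays, at -0.93 (adjusted p = 0.00335) and -1.11 (adjusted p = 0.0184).

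Sf3b2, a subunit of the SF3b complex that holds the branch point, rose after siCdc73 in both assays. RNA-seq gave 812 and 837 in siCtrl, 1065 and 1215 in siPaf1, 1565 and 1896 in siCdc73 and 1206 in siSki8, with every siCdc73 library above all others, and 1.06 ± 0.21 (SE, adjusted p = 2.04e-04). 3'READS gave 156 and 158 in siCtrl, 236 and 177 in siPaf1, 307 and 269.9 in siCdc73 and 233 in siSki8 and 0.87 ± 0.27 (SE, adjusted p = 0.0288). The RNA-seq call held in 6 of 6 fits that left out 1 library, and the 3'READS call was lost without any 1 of the siCtrl or siCdc73 libraries. Sf3b3, another SF3b subunit, fell after siCdc73 in 3'READS, at -1.06 ± 0.27 (SE, adjusted p = 0.00967), with 596 and 315 in siCtrl, 396 and 175 in siPaf1, 319.6 and 135 in siCdc73 and 283 in siSki8, where batch 1 ran higher in every group. This call was lost without siCtrl batch 2 or siCdc73 batch 2. Of the 9 U2 genes tested in RNA-seq, 1 rose and 1 fell after siPaf1 and 2 rose after siCdc73, and of the 13 in 3'READS, 1 rose and 1 fell after siPaf1 and 3 rose and 1 fell after siCdc73. The shares of all genes called were 32.5% and 39.9% in RNA-seq and 18.8% and 22.5% in 3'READS.

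The Sm core gave 0 calls among 5 genes in RNA-seq and 8 in 3'READS after siPaf1, where 32.5% and 18.8% of all genes were called. After siCdc73 2 of 5 rose and 1 fell in RNA-seq, and 0 of 8 rose and 1 fell in 3'READS. All genes gave 39.9% and 22.5% called in either direction. Snrpn, named after its value was seen, rose in RNA-seq, a call lost without siCtrl batch 1 or either siCdc73 library. Snrpb, which encodes SmB, rose after siCdc73 in RNA-seq by 1.03 ± 0.23 (SE, adjusted p = 7.84e-04), from 395 and 586 in siCtrl to 712 and 1324, and 3'READS gave 0.63 ± 0.33 (SE, adjusted p = 0.184). That call was lost without siCdc73 batch 2. Snrpg, which encodes SmG, fell after siCdc73 in both assays, at -1.15 ± 0.27 (SE, adjusted p = 9.92e-04) and -1.02 ± 0.31 (SE, adjusted p = 0.0286). Its RNA-seq values were 17.3 and 115 in siCtrl, 20.0 and 103 in siPaf1, 9.44 and 44.4 in siCdc73 and 152 in siSki8, so the batches differed more than the groups did, and its 3'READS values were 24.2 and 21.4 in siCtrl, 19.1 and 10.9 in siPaf1, 13.9 and 9.16 in siCdc73 and 31.4 in siSki8. The RNA-seq call was lost without siCtrl batch 2 or siCdc73 batch 2, the 3'READS call also without siCdc73 batch 1 and with DESeq2. Without the block, the RNA-seq direction of Snrpg turned to 0.61 when siCtrl batch 2 was left out.

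**Figure D2:**
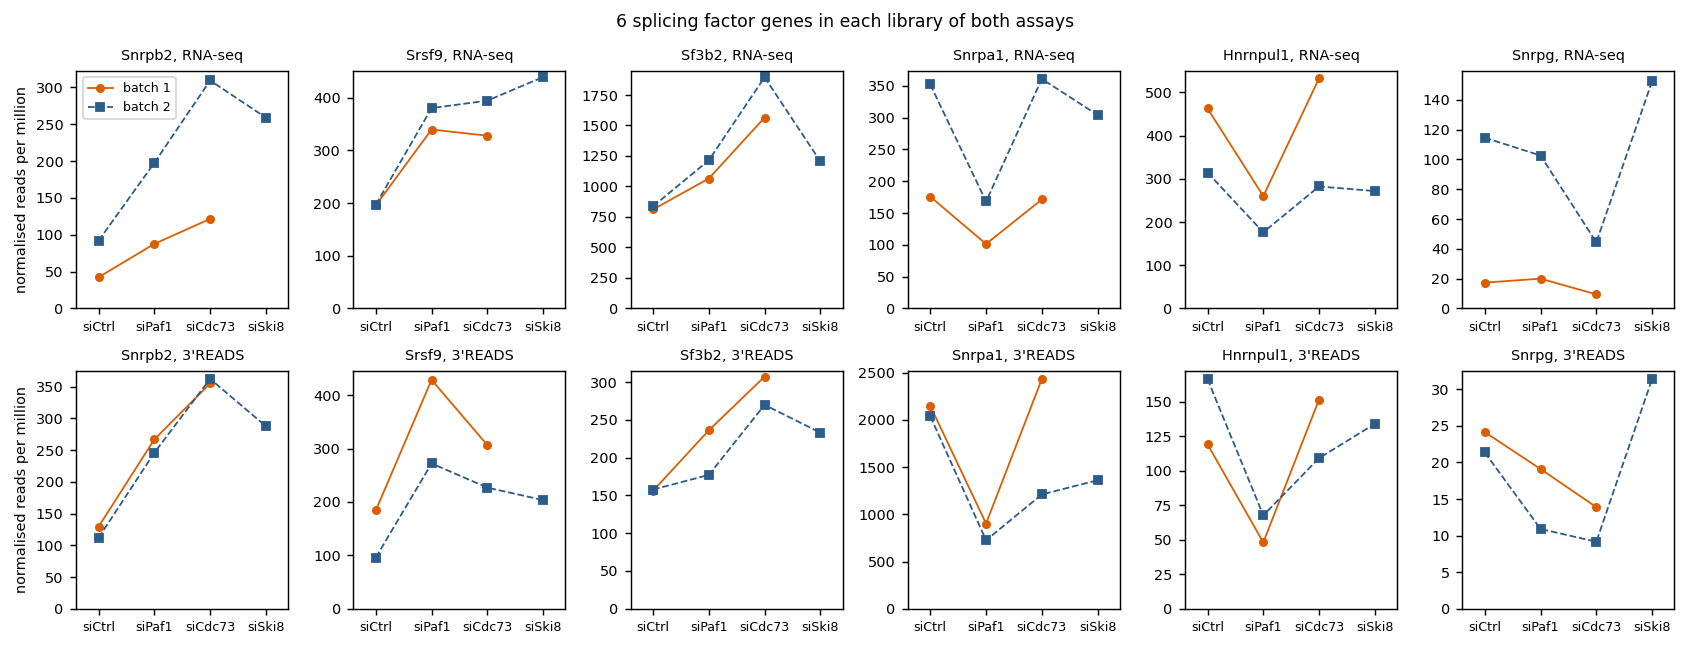
Normalised CPM (y axis, from 0) of 6 splicing factor genes in siCtrl, siPaf1, siCdc73 and siSki8 (x axis) for RNA-seq (top) and 3'READS gene totals (bottom); lines join libraries of a batch, and siSki8 was made in batch 2 only. Snrpb2 and Srsf9 lie above siCtrl of the same batch in every knockdown library, Snrpa1 and Hnrnpul1 are lowest of their batch in siPaf1, and Snrpg is lowest in siCdc73.

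Among the remaining snRNP and Prp genes, 1 of the 4 Prp genes outside the U4/U6.U5 class tested in RNA-seq, Prpf40b, rose after siPaf1. That call was lost without siCtrl batch 2 or siPaf1 batch 2. After siCdc73 0 of these 4 were called. In 3'READS 1 of 8 such genes rose after siPaf1 and 2 of 8 after siCdc73. All genes gave 32.5% and 39.9% called in either direction in RNA-seq and 18.8% and 22.5% in 3'READS. The U5 helicase Snrnp200 rose after siCdc73 in RNA-seq by 0.81 ± 0.21 (SE, adjusted p = 0.00327) and was at 0.51 in 3'READS (named after its value was seen), and this call was lost without either siCdc73 library. None of the 11 U4/U6.U5 and minor snRNP genes was called in 3'READS by edgeR with the block. Prpf18, a factor of the second catalytic step, had 16.2 and 23.4 in siCtrl, 31.1 and 35.4 in siPaf1, 40.0 and 68.1 in siCdc73 and 27.9 in siSki8 in 3'READS and rose after siCdc73 by 1.43 ± 0.29 (SE, adjusted p = 0.00266), in 6 of 6 fits that left out 1 library. Prpf38b, a Prp38 family protein, had 13.2 and 16.2 in siCtrl, 24.4 and 34.9 in siPaf1, 40.0 and 33.0 in siCdc73 and 22.0 in siSki8. It rose by 1.01 ± 0.30 (SE, adjusted p = 0.0301) in siPaf1 and 1.32 ± 0.31 (SE, adjusted p = 0.00629) in siCdc73, the first lost without either siCtrl library or siPaf1 batch 2 and the second without siCtrl batch 1 or siCdc73 batch 1. RNA-seq gave 0.63 ± 0.28 (SE, adjusted p = 0.0874) and 0.27 ± 0.27 (SE, adjusted p = 0.460) for it, with siPaf1 batch values of -0.31 and 1.46.

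The 2 assays read different parts of a transcript, coding reads against 3' ends, and 41 splicing factor genes were tested in both. In siPaf1 4 were called in both, all in the same direction (Hnrnpul1, Snrpa1, Snrpb2 and Srsf9), of 9 called in RNA-seq and 7 in 3'READS. In siCdc73 5 were called in both, also in the same direction (Hnrnpc, Sf3b2, Snrpb2, Snrpg and Srsf9), of 13 and 9. In siSki8 0 of the 3 called in RNA-seq were called in 3'READS. Pearson's r of the log2 fold changes across these 41 genes was 0.581 in siPaf1, 0.711 in siCdc73 and 0.538 in siSki8, against 0.741, 0.776 and 0.485 across the 5610 genes tested in both. These are descriptions across genes, which are not independent replicates, and the same signs stood in 25, 26 and 32 of the 41 genes. Genes called in both assays or with the same sign were not counted over the 5610 genes. The counts for the 41 genes are therefore not read as a trait of splicing factor genes.

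**Figure D3:**
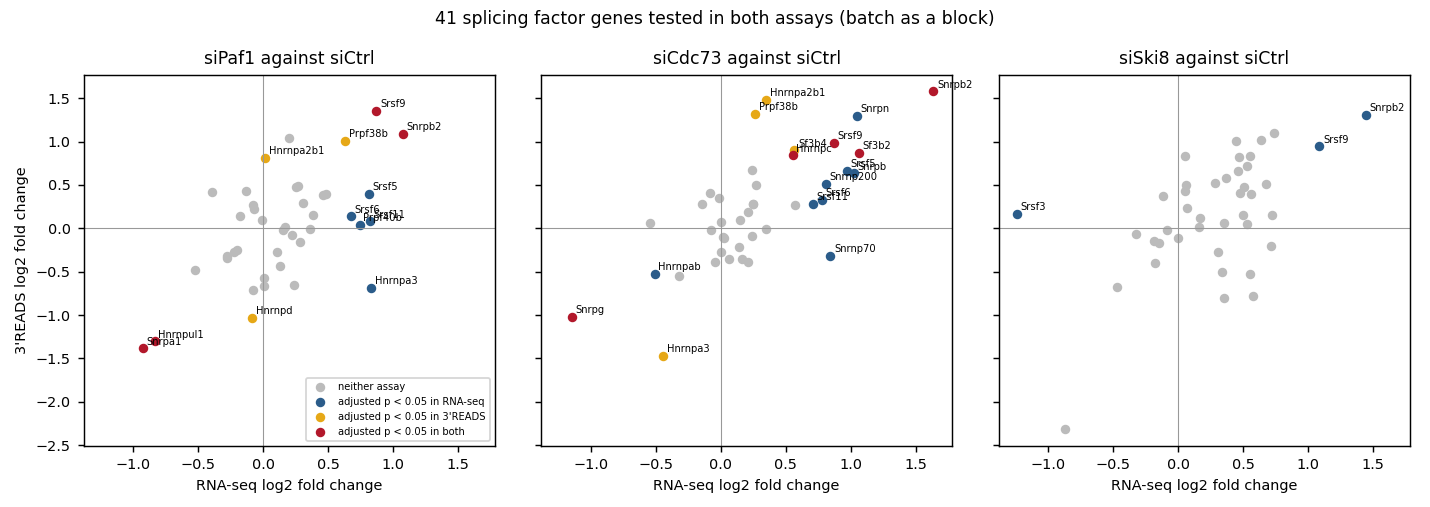
Log2 fold change in RNA-seq (x axis) against 3'READS gene totals (y axis) for the 41 splicing factor genes tested in both, with the batch term included. Colour gives the assay in which a gene passed an adjusted p of 0.05, and Snrpb2 and Srsf9 sit in the upper right corner in siPaf1 and siCdc73.

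Whether the knockdowns differed was tested directly. In RNA-seq siPaf1 was above siCdc73 for 4 of 43 genes (Hnrnpa3, Hnrnph2, Snrpg and Srsf4) and below it for 9 (Hnrnpc, Hnrnpul1, Sf3b2, Sf3b4, Snrnp200, Snrnp70, Snrpa1, Snrpb and U2af2), where 28.2% of all genes differed. In 3'READS it was above for 1 of 70 (Hnrnpab) and below for 4 (Hnrnpd, Hnrnpul1, Snrpa1 and U2af2), where 14.4% of all genes differed. These 2 knockdowns share no library. Hnrnpul1, Snrpa1 and U2af2, the large subunit of U2AF, were on both lists. U2af2, named after its values were seen, had 365 and 309 in siCtrl, 266 and 205 in siPaf1, 487 and 335 in siCdc73 and 372 in siSki8 in RNA-seq and 2423 and 2515 in siCtrl, 1329 and 2257 in siPaf1, 3793 and 3159.8 in siCdc73 and 1857 in siSki8 in 3'READS: siPaf1 was below siCtrl and siCdc73 above it in each batch of both assays, with neither passing the test against siCtrl (adjusted p = 0.0690 and 0.344 in RNA-seq, 0.250 and 0.224 in 3'READS). Its difference between siPaf1 and siCdc73 was -0.80 (adjusted p = 0.00899) and -0.99 (adjusted p = 0.0328). Against siSki8, siPaf1 was above for 2 genes and below for 3 in RNA-seq, where 28.6% of all genes differed (13.1% above and 15.4% below), and siCdc73 was above for 2 and below for 3, where 28.6% did (12.6% and 16%). Without the block 0 genes differed between siPaf1 and siCdc73 in either assay, with 2 higher and 1 lower at an unadjusted p under 0.05 in RNA-seq and 0 and 2 in 3'READS. With the block, the RNA-seq total of 13 was 25 without siPaf1 batch 1, 7 without siCdc73 batch 1 and 0 without siCdc73 batch 2, and the 3'READS total of 5 was 10 without siPaf1 batch 1, 1 without siCdc73 batch 1 and 3 without siCdc73 batch 2.

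A list of 52 other splicing genes outside the symbol rule, such as Tra2a, the Clk kinases, the Luc7-like U1 partners and the Lsm ring of U6, was called in both directions, at shares near those of all genes. In RNA-seq 35 were tested, of which 6 rose and 6 fell after siPaf1, 5 rose and 6 fell after siCdc73 and 1 rose after siSki8, where 32.5%, 39.9% and 5.43% of all genes were called in either direction. In 3'READS 50 were tested, of which 3 rose and 6 fell after siPaf1, 4 rose and 6 fell after siCdc73 and 0 were called after siSki8, against 18.8%, 22.5% and 0.151%. The U6 ring genes Lsm2 and Lsm4 fell in siPaf1 and in siCdc73 in both assays: Lsm2 had -0.97 ± 0.27 and -1.62 ± 0.28 in RNA-seq and Lsm4 -1.21 ± 0.28 and -1.78 ± 0.28 (log2 ± SE). Sart1, which recruits the tri-snRNP, rose in both knockdowns and both assays, by 0.89 ± 0.23 and 1.54 ± 0.23 in RNA-seq. The list's median log2 fold change in RNA-seq was 0.08 in siPaf1, 0.08 in siCdc73 and 0.37 in siSki8. These genes were named after their values were seen.

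The 214 pA sites of splicing factor genes lay mostly at the end of the gene: 165 in the 3'-most exon, 32 in introns of 15 genes, 5 in internal exons of 3 genes and 12 as upstream antisense sites of 6 genes. An intronic site was listed for 21.1% of splicing factor genes against 42.3% of all genes, and their median annotated span was 12502 bases against 22657. Reads at intronic sites were a small share of their sense PASS reads: 0.108% (95% Wilson interval 0.0893 to 0.130) and 0.0978% (0.0844 to 0.113) in siCtrl, 0.196% (0.171 to 0.224) and 0.168% (0.153 to 0.185) in siPaf1, 0.150% (0.127 to 0.177) and 0.128% (0.116 to 0.142) in siCdc73 and 0.0919% (0.0785 to 0.108) in siSki8. Both siPaf1 and both siCdc73 libraries were above both siCtrl libraries, and siSki8 was below them. The same share over all genes was 2.04% and 1.70%, 2.80% and 2.59%, 2.53% and 2.40%, and 1.93%. These intervals cover counting error only. The genes with the highest intronic share in siCtrl were Prpf40b (34 of 127 reads), Hnrnph3 (8 of 66) and Hnrnpd (116 of 1073). The intronic site of Hnrnph3 lies 4 bases from an annotated transcript end and that of Hnrnpd 241 bases from one, while the 7 sites of Prpf40b, in introns 15 and 18 of 25, lie at least 1453 bases from any.

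The hexamer AATAAA, the canonical poly(A) signal, stood on the transcribed strand within the 30 bases that end at the site in 37.5% of the 32 intronic sites against 41.2% of all 16766, and ATTAAA without it in 15.6% against 14.4%. In the 3'-most exon the shares were 50.3% of 165 sites against 39.6% of 38550 for AATAAA and 16.4% against 14% for ATTAAA. A match is a description of the letters and not of a functional signal. Shown next are the windows of the 4 intronic sites that edgeR called after siPaf1, with the hexamer in capitals where there is one (5' to 3', mm9 coordinates, sequence from NCBIM37):

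Hnrnpk (chr13:58497231-58497260, minus strand): acctgaaAATAAAatagttttttaaggtgg

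Hnrnpm (chr17:33809271-33809300, minus strand): tgtaatcctatAATAAAtaattaaatcttt

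Hnrnpl (chr7:29602431-29602460, plus strand): aaaaatacagatttgtttttttgtgacaaa

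Snrnp40 (chr4:130045693-130045722, plus strand): atttcctaATTAAAatactactctgcagaa

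Each single intronic site was tested as its share of all sense reads of its gene, and 9 sites of 7 splicing factor genes had enough reads. Without the block 0 of 9 were called in each knockdown (3 higher after siPaf1 and 2 after siCdc73 at an unadjusted p under 0.05, 0 lower), where 0.247%, 1.48% and 0% of all 2836 sites were called. With the block 4 were called higher after siPaf1, against 17.8% of all sites, 2 were called higher after siCdc73, against 20.1%, and 0 were called after siSki8 (0 higher and 0 lower at an unadjusted p under 0.05), against 0%; 0 fell in siPaf1 or siCdc73. The total of 4 after siPaf1 was 0 without siCtrl batch 2 and 0 without siPaf1 batch 2, and the total of 2 after siCdc73 was 1 without siCtrl batch 2 or either siCdc73 library. The sites of Hnrnpk and Snrnp40, which make up both siCdc73 calls and 2 of the 4 siPaf1 calls, reached the mean of 5 reads only through the libraries where they were high, so these totals support nothing and both sites are given by their reads alone.

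Hnrnpk encodes a protein that binds cytosine-rich RNA, and its site lies in intron 7 of 14, 318 bases past the 5' splice site, with AATAAA in its window. The site had 4 of 249 and 1 of 876 in siCtrl, 21 of 309 and 36 of 800 in siPaf1, 22 of 195 and 33 of 1320 in siCdc73 and 2 of 621 in siSki8 of the gene's reads. That was 1.61% (95% Wilson interval 0.626 to 4.06) and 0.114% (95% Wilson interval 0.0202 to 0.644) in siCtrl against 6.80% (95% Wilson interval 4.49 to 10.2) and 4.50% (95% Wilson interval 3.27 to 6.17) in siPaf1. All 4 siPaf1 and siCdc73 libraries were above both siCtrl libraries and siSki8.

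Snrnp40 encodes a WD-repeat protein of U5. Its site in intron 4 of 9, 121 bases past the 5' splice site, had 0 of 84 and 0 of 489 in siCtrl, 4 of 120 and 19 of 498 in siPaf1, 20 of 53 and 57 of 609 in siCdc73 and 0 of 466 in siSki8. No read fell on it in siCtrl or siSki8. The approximate 95% upper limit of the expected count when 0 reads are seen is 3 reads. In the siCtrl libraries of batch 1 and batch 2 this would be 3.57% and 0.613%. Its share was 3.33% (95% Wilson interval 1.30 to 8.26) and 3.82% (95% Wilson interval 2.46 to 5.88) in siPaf1 and 37.7% (95% Wilson interval 25.9 to 51.2) and 9.36% (95% Wilson interval 7.29 to 11.9) in siCdc73. Both siCdc73 libraries and siPaf1 batch 2 lay above that limit of their batch, and siPaf1 batch 1 did not. A second site in the same intron, 8453 bases past the splice site, had 2 of 84 and 1 of 489 in siCtrl, 5 of 120 and 35 of 498 in siPaf1, 5 of 53 and 5 of 609 in siCdc73 and 1 of 466 in siSki8, with siPaf1 batch 2 and siCdc73 batch 1 the highest in share.

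Hnrnpl encodes a protein that binds CA repeats, and its site lies in intron 6 of 11 with neither hexamer in the window. It took 1.10% and 4.73% in siCtrl, 5.73% and 16.3% in siPaf1, 2.95% and 5.72% in siCdc73 and 1.80% in siSki8 of the gene's reads (7 of 638 and 40 of 845 in siCtrl, 31 of 541 and 120 of 736 in siPaf1, 9 of 305 and 56 of 979 in siCdc73 and 19 of 1055 in siSki8). Within each batch siPaf1 was the highest, with 2.15 ± 0.69 (SE, adjusted p = 0.0271), while siCdc73 gave 0.74 ± 0.72 (SE, adjusted p = 0.502) and the difference between siPaf1 and siSki8 was 3.37 (adjusted p = 0.0197). Hnrnpm, whose site lies in intron 2 of 15 at AATAAA, took 14% and 6.0% in siCtrl, 35.0% and 39.1% in siPaf1, 14.9% and 14.4% in siCdc73 and 6.08% in siSki8 (8 of 57 and 6 of 100 in siCtrl, 48 of 137 and 45 of 115 in siPaf1, 7 of 47 and 27 of 187 in siCdc73 and 9 of 148 in siSki8). Both siPaf1 libraries were above the 5 others, and the change was 2.50 ± 0.91 (SE, adjusted p = 0.0483) in siPaf1 and 0.75 ± 0.94 (SE, adjusted p = 0.624) in siCdc73. The Hnrnpm call was lost in each of the 6 fits that left out 1 library, and that of Hnrnpl without either siCtrl library or siPaf1 batch 2.

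**Figure D4:**
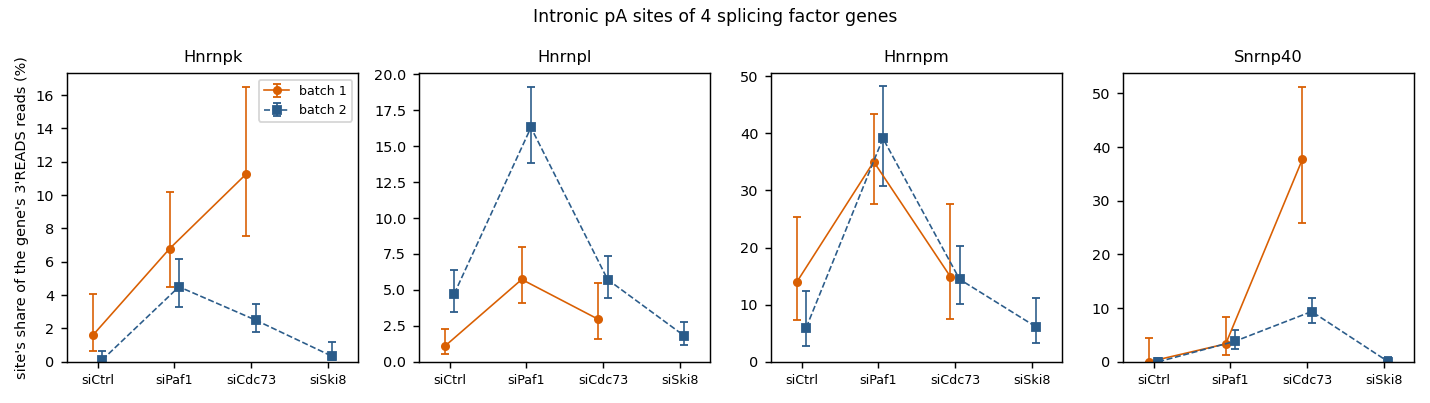
Share of a gene's sense 3'READS reads at 1 intronic pA site (y axis, percent, from 0) in siCtrl, siPaf1, siCdc73 and siSki8 (x axis), with 95% Wilson intervals for counting error; lines join libraries of a batch. Hnrnpl and Hnrnpm are highest in siPaf1 in both batches, and Snrnp40 is highest in siCdc73.

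Summed over all intron and internal exon sites of at least 5% of a gene's reads (CDS-APA), 5 splicing factor genes could be tested: Hnrnpd, Hnrnph3, Hnrnpl, Hnrnpm and Srsf10. Without the block 0 of 5 were called, with 1 higher after siPaf1 at an unadjusted p under 0.05, where 2.38%, 4.13% and 0% of 1766 genes were called. With the block 2 rose after siPaf1, Hnrnpl by 2.14 ± 0.60 (SE, adjusted p = 0.00296) and Hnrnpm by 2.47 ± 0.88 (SE, adjusted p = 0.0251), against 18.9% of all genes that rose and 4.08% that fell. With all sites kept, 4 other genes were called and both of these were lost (adjusted p = 0.0566 and 0.169, edgeR). The share of all genes called in that fit is not given here, so the 4 calls are not read as a trait of splicing factor genes. The Hnrnpl site took 3.17% of the gene's reads over both siCtrl libraries. It passed the 5% rule only through the siPaf1 libraries, so its CDS-APA call supports nothing. The total of 2 was 0 without siPaf1 batch 2 and 1 without siPaf1 batch 1 or either siCtrl library. In siCdc73 and siSki8 edgeR called 0 of 5, with 0 higher and 0 lower and 0 higher and 0 lower at an unadjusted p under 0.05, against 23.2% and 0.113% of all genes. Hnrnpd gave 0.07, -0.39 and -0.56 in siPaf1, siCdc73 and siSki8, and Srsf10, whose 2 listed intronic sites fall in an annotated untranslated last exon, gave 0.43, -0.84 and 0.52, with adjusted p of at least 0.436 for both genes (edgeR).

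Within the 3'-most exon, 45 splicing factor genes had 2 or more sites, and 32 had enough reads to compare the proximal with the distal of their 2 most used sites (3'UTR-APA). Without the block 0 of 32 were called, with 2 and 0, 2 and 2, and 1 and 0 shifted to the proximal and to the distal site at an unadjusted p under 0.05 after siPaf1, siCdc73 and siSki8, where 0% of 4567 genes were called. With the block 3 shifted to the proximal and 0 to the distal site after siPaf1, against 5.1% and 1.69% of all genes, 1 and 2 after siCdc73, against 3.88% and 0.416%, and 0 after siSki8 (3 higher and 0 lower at an unadjusted p under 0.05), against 0.307%. Proximal over distal reads changed by a median log2 value of -0.01 against 0.30 over all genes in siPaf1, 0.27 against 0.41 in siCdc73 and 0.30 against 0.40 in siSki8. The siPaf1 total of 3 was 1 without siPaf1 batch 2 and 5 without siPaf1 batch 1. The siCdc73 total of 3 was 0 without siCdc73 batch 1 and 1 without either siCtrl library. The windows of 3 genes with a called shift, proximal site first, read as follows, marked in the same way:

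Hnrnpul2 proximal (chr19:8906533-8906562, plus strand): caattggctgttatgaatcacttgcaccaa

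Hnrnpul2 distal (chr19:8908604-8908633, plus strand): gttttagAATAAAtaaccatttggattgaa

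Hnrnpa0 proximal (chr13:58228274-58228303, minus strand): atttttAATAAAtcattgtgtttgaccgta

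Hnrnpa0 distal (chr13:58227240-58227269, minus strand): ggatatcacaAATAAAgaattcaattctta

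Hnrnpa2b1 proximal (chr6:51412759-51412788, minus strand): tatgatttAATAAAataattctaaaggaaa

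Hnrnpa2b1 distal (chr6:51411120-51411149, minus strand): ttttataaAATAAAtacttttgtatccaaa

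Hnrnpul2, the second hnRNP U-like gene, has sites 2071 bases apart, and the proximal one took 93.4% and 30.2% in siCtrl, 98.8% and 82.0% in siPaf1, 95.7% and 46.1% in siCdc73 and 27.9% in siSki8. The batches stood far apart in siCtrl, and within each the siPaf1 library was the highest. The log2 change was 2.99 ± 0.50 (SE, adjusted p = 3.99e-06) in siPaf1, 0.81 ± 0.48 (SE, adjusted p = 0.442) in siCdc73 and -0.34 ± 0.63 (SE, adjusted p = 1.00) in siSki8; the siPaf1 call held in 6 of 6 fits that left out 1 library, and the difference from siCdc73 was 2.17 (adjusted p = 0.00406). Hnrnpa0, an intronless hnRNP gene with sites 1034 bases apart, had 76.6% and 86.1% in siCtrl, 93.3% and 95.1% in siPaf1, 94.1% and 92.3% in siCdc73 and 86.6% in siSki8 at the proximal site. All siPaf1 and siCdc73 libraries were above both siCtrl libraries, by 1.87 ± 0.43 (SE, adjusted p = 0.00139) and 1.6 ± 0.43 (SE, adjusted p = 0.0112). The first was lost without siCtrl batch 1 or siPaf1 batch 2, the second without either siCtrl library or siCdc73 batch 1.

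Hnrnpa2b1 moved the other way. Its proximal site, 1639 bases upstream of the distal one and inside an intron of an annotated coding transcript, took 10.3% and 8.80% in siCtrl, 5.79% and 3.54% in siPaf1, 0.681% and 2.92% in siCdc73 and 17.5% in siSki8 of the reads of both sites. Each siPaf1 and siCdc73 library was below both siCtrl libraries, and siSki8 was above them. The change was -2.78 ± 0.43 (SE, adjusted p = 5.74e-07) in siCdc73, lost without siCdc73 batch 1, and -1.15 ± 0.41 (SE, adjusted p = 0.0733) in siPaf1. siPaf1 was above siCdc73 by 1.63 (adjusted p = 0.0156), and siCdc73 against siSki8 stood at -3.63 (adjusted p = 3.50e-07). Beside this, as given above, its 3'READS total rose in both knockdowns and its coding reads did not pass the test.

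Prpf38b, with sites 5358 bases apart, had 75.9% and 54.0% in siCtrl, 42.5% and 22.1% in siPaf1, 20.7% and 22.2% in siCdc73 and 64.5% in siSki8 at the proximal site, and both siPaf1 and both siCdc73 libraries were below siCtrl. It shifted to the distal site in siCdc73, at -2.75 ± 0.70 (SE, adjusted p = 0.00641), lost without either siCtrl library or siCdc73 batch 1, with -2.05 ± 0.69 (SE, adjusted p = 0.0512) in siPaf1.

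**Figure D5:**
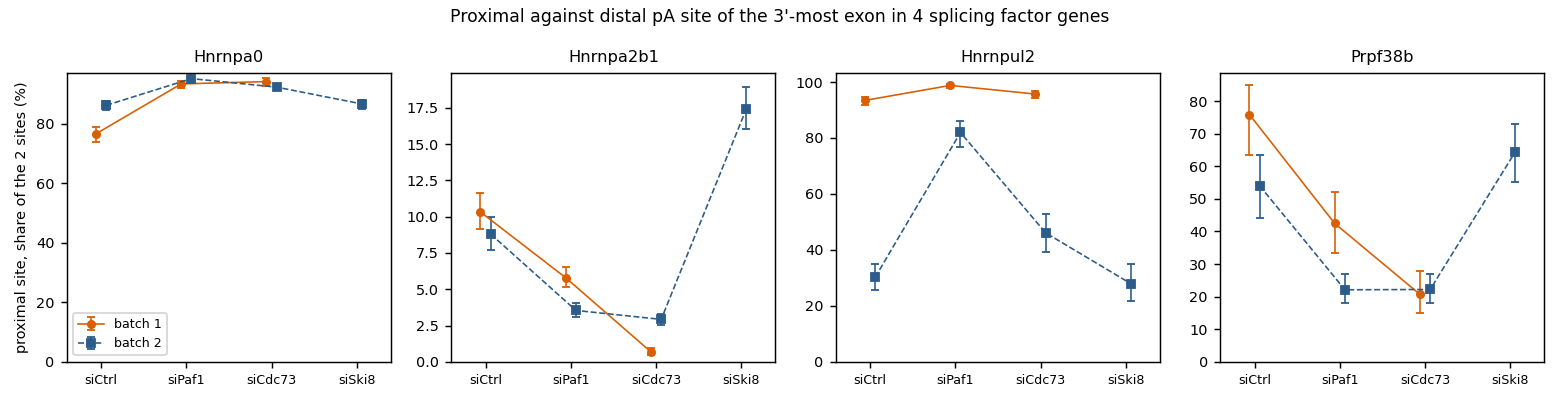
Share of the proximal pA site among the reads of the 2 most used sites of the 3'-most exon (y axis, percent, from 0) in 4 splicing factor genes by knockdown (x axis), with 95% Wilson intervals for counting error; lines join libraries of a batch. Hnrnpa0 and Hnrnpul2 are highest in siPaf1 in batch 2, and Hnrnpa2b1 and Prpf38b lie below siCtrl in siPaf1 and siCdc73.

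Upstream antisense RNA could be tested for 6 splicing factor genes: Hnrnpd, Hnrnpf, Hnrnpm, Snrnp35, Snrnp70 and Srsf4. No gene was called in any knockdown by edgeR, with 0 at an unadjusted p under 0.05 without the block, where 0.0902%, 0.271% and 0% of 1109 genes were called, and with the block, where 0 higher and 0 lower in siPaf1, 0 higher and 0 lower in siCdc73 and 0 higher and 0 lower in siSki8 had such a p, 2.07%, 2.16% and 0.0902% of all were called. Snrnp35, a protein of the minor U11/U12 snRNP, had the clearest values: antisense reads were 5.66% and 8.54% in siCtrl, 34.6% and 27.0% in siPaf1, 19.6% and 15.7% in siCdc73 and 4.90% in siSki8 of all reads, with both siPaf1 and both siCdc73 libraries above siCtrl, and log2 changes of 2.48 ± 1.31 (SE, adjusted p = 0.370) and 1.44 ± 1.36 (SE, adjusted p = 0.653). For Snrnp70 the changes were 0.72 ± 1.22 (SE, adjusted p = 0.856), 0.25 ± 1.26 (SE, adjusted p = 1.00) and 0.37 ± 1.57 (SE, adjusted p = 1.00) in siPaf1, siCdc73 and siSki8.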

How the data were processed

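RNA-seq and 3'READS were each measured in 7 libraries of C2C12 cells. Reads were aligned by the authors with bowtie2 (local mode, mm9), and unique hits were kept (MAPQ over 10; Bowtie2 and mm9 also stand in the submitters' processing notes, versions not given in the sources used here). The deposited RNA-seq counts are raw reads per RefSeq transcript, from the coding region of protein-coding genes in strand-specific libraries, and the deposited RPKM values scale them for transcript length and unique reads. The deposited 3'READS counts are PASS reads per pA site, reads with at least 2 untemplated Ts.

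CPM are counts scaled to the TMM-adjusted library size (for marker genes, to library size alone). A gene's RNA-seq value was its transcript with the highest mean count, and its 3'READS total the sum of its sense sites. Counts were tested with edgeR 4.0.16 (R 4.3.3; TMM, filterByExpr, glmQLFit and glmQLFTest, Benjamini-Hochberg over all features, threshold 0.05), all 7 libraries in 1 fit. The siSki8 library was assumed to vary like the other groups. CDS-APA, 3'UTR-APA, single intronic sites and antisense RNA were tested as an isoform by knockdown interaction with 1 coefficient per library. Genes needed a mean of 20 reads per library, single sites a mean of 5, antisense RNA 10 reads in all, and sites under 5% of a gene's reads were left out of APA. The design had no batch term, as the study's methods have none. The labels name 2 batches, and libraries of a batch deviated together (correlation of deviations between groups 0.620 to 0.748 in RNA-seq, 0.432 to 0.610 in 3'READS, 0.362 to 0.414 for CDS-APA and 0.479 to 0.561 for 3'UTR-APA), so the batch block pairs them. It lowered the biological coefficient of variation from 0.397 to 0.179 in RNA-seq and from 0.515 to 0.247 in 3'READS. The alternatives were DESeq2 1.42.0, library size alone, other filters and site rules, pooled reads, and leaving out each library. Scripts were tested on simulated counts. Precision is given as SE or as a Wilson interval for counting error.

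The genes, role classes and the list of 52 other splicing genes were chosen with earlier results of these data known. Genes named were the U1 proteins, the siRNA targets, up to 5 genes in each direction per test and knockdown with the smallest p in the block fit, among those past the threshold, in 1 direction in each batch and with a mean of 20 reads, the highest and lowest siCtrl RPKM per class, and the 3 highest intronic shares. Others, such as Srsf6, Srsf10, Snrnp35, Snrnp200 and the RNA-seq values of Hnrnpa3, were chosen after their values were seen. A gene that this rule names in 3'UTR-APA is not reported here, although it stays in the counts. ChIP-seq samples were not analysed here.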

Additional observations from a re-analysis of the deposited data

How the results depend on the processing

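Without the batch block edgeR called 0 splicing factor genes or sites in each test and knockdown, so every count in the report rests on the block. In siPaf1, siCdc73 and siSki8 the block gave 10, 13 and 3 genes in RNA-seq, 7, 12 and 0 in 3'READS, 2, 0 and 0 for CDS-APA, 3, 3 and 0 for 3'UTR-APA and 4, 2 and 0 intronic sites, and 13 (RNA-seq) and 5 (3'READS) between siPaf1 and siCdc73. In the same order, RNA-seq and 3'READS gave 11, 13, 3 and 8, 9, 0 with library size alone, 9, 12, 2 and 8, 11, 2 with DESeq2, and 11, 13, 3 and 8, 12, 2 with no filter, all with the block; DESeq2 without it gave 0, 1, 0 and 1, 3, 0. Summed transcripts gave 10, 14 and 2 in RNA-seq, and 3'-most exon sites alone 7, 12 and 0 in 3'READS. Between siPaf1 and siCdc73, library size alone gave 11 and 4, no filter 13 and 5, summed transcripts 13 and 3'-most exon sites 6. Library size alone moved the median of all genes to -0.19 in siCdc73 and -0.23 in siSki8 (RNA-seq) and to 0.18 and -0.12 in siPaf1 and siCdc73 (3'READS), with the block. All sites kept gave 4, 2 and 0 for CDS-APA and 3, 3 and 0 for 3'UTR-APA, a mean of 50 reads 2, 0, 0 and 2, 3, 0, and for intronic sites after siPaf1 a mean of 20 reads per site and the 5% rule gave 2 each. Pooled reads, which ignore the spread between libraries, gave 11, 16 and 14 in RNA-seq (1.4-fold and Fisher's exact test), 2, 2 and 1 for CDS-APA and 23, 19 and 18 for 3'UTR-APA.

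Leaving out 1 library, with or without the block, gave 0 to 18, 0 to 18 and 0 to 11 genes in RNA-seq, 0 to 10, 0 to 19 and 0 to 3 in 3'READS, 0 to 2 for CDS-APA after siPaf1, 0 to 5 and 0 to 4 for 3'UTR-APA after siPaf1 and siCdc73, 0 to 4 and 0 to 2 intronic sites, and 0 to 25 and 0 to 10 between siPaf1 and siCdc73. The cause was not tested.

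Directions turned for uncalled values of the U1 proteins. Without the block, they also turned for Snrpg in RNA-seq after siCdc73, a gene called at -1.15 with the block. In 3'READS after siSki8, Snrnp70 went to -0.15 with the block, -0.15 with library size alone, -0.17 with DESeq2, -0.15 with no filter and -0.19 with 3'-most exon sites, and Snrpa to -0.0349, -0.0358, -0.053, -0.0395 and -0.0448. Leaving out 1 library, the ranges were -0.0411 to 0.33 for Snrnp70 in RNA-seq after siPaf1 and -2.80 to 0.61 for Snrpg after siCdc73, and in 3'READS -0.97 to 0.21 and -0.44 to 0.36 for Snrnp70 after siCdc73 and siSki8, -0.21 to 0.53 and -0.18 to 0.0889 for Snrpa after siPaf1 and siSki8, and -0.62 to 0.44 and -0.0204 to 1.15 for Snrpc after siPaf1 and siCdc73.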
